A study of Mus musculus with 6 samples.

Results

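The replication-independent histone variants are the histones that cells can make and load into chromatin outside S phase, encoded by genes that lie apart from the large histone clusters. They were taken as the rows of the deposited table whose gene symbol is one of 9 named variants, and 7 were found among its 9093 genes: H2afx, H2afv, H2afy and H2afj of the H2A type, H3f3b of the H3 type, and the linker histone genes H1f0 and H1fx. H2afz and H3f3a were not analysed here.

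The samples were mouse embryonic stem cells without Mettl5 (KO), edited with CRISPR/Cas9, and wild-type (WT) cells. Mettl5 encodes the enzyme that methylates an adenosine of 18S ribosomal RNA. All samples share the labelled background of 129Sv females crossed to C57BL/6 BVSC males and the same N2B27 culture with 1000 U per ml of leukemia inhibitory factor, 3 µM CHIR99021 and 1 µM PD0325901, a cytokine and inhibitors that hold the cells in the naive state. Ribosome footprints, the mRNA pieces covered by cycloheximide-stalled ribosomes, were sequenced in 2 KO and 2 WT libraries, and input mRNA in 1 KO and 1 WT library. How many knockout clones were used, and whether replicate libraries came from separate cultures, is not given in the sources used here, so each p-value reflects the spread between libraries alone, which may be technical.

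Canonical histone mRNAs are made in S phase, carry no introns and end in a stem-loop in place of a poly(A) tail, whereas most variant mRNAs are spliced and polyadenylated. Variants replace canonical histones at chosen places: H2A.X marks DNA breaks once phosphorylated, H2A.Z and H3.3 sit at promoters and enhancers, and macroH2A is found in silent chromatin. H2afx is a mixed case, a gene without introns whose mRNA can end in either form. The labels call the molecule polyA RNA and also describe ribosomal RNA depletion, so which of the 2 mRNA forms the input held is unclear, and its part in the values of H2afx was not tested.

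Library totals were 2060010 and 3472613 reads for KO footprints, 3524739 and 8675267 for WT footprints, 15931259 for KO input and 17912908 for WT input. Values are given as CPM, counts per 1000000 reads of the library total, which are not corrected for gene length, so CPM is compared between genotypes within a gene, and a gene's share of reads within a group of genes is compared only between libraries of one kind. Mettl5 had 9.71 and 11.2 CPM of footprints in KO cells, against 123 and 127 CPM in WT cells. All 8 listed stem cell markers were in the table, at a summed 4599 to 4642 CPM of footprints in KO and 4152 to 4159 CPM in WT libraries. By edgeR 5 of them were called higher, Tfcp2l1 (-0.18) was called lower, and Sox2 and Esrrb were called neither. Of 6 fibroblast markers 2 were in the table, Col1a1 and Vim, at a summed 134 to 137 CPM in KO and 643 to 666 CPM in WT libraries, and of 8 germ layer markers 1 was. Of 4 markers of the formative and primed states, which follow the naive state, 2 were in the table, at a summed 35.4 and 48.1 CPM in KO and 96.2 and 95.2 CPM in WT libraries. Both of these fell in footprints, Dnmt3b by 1.49 and Otx2 by 0.56 (edgeR adjusted p = 3.53e-24 and 0.0045). The part of these marker differences in the values below was not tested.

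Footprints of H2afx and H2afy rose in KO cells, those of H1f0 and H3f3b fell, and H2afv, H2afj and H1fx passed the test in neither direction. The test was edgeR's quasi-likelihood test over all 9093 genes with p-values adjusted by Benjamini and Hochberg's method and called at 0.05. Under it 2 of 7 variants were higher and 2 of 7 lower, where 18.3% of all genes were higher and 16.0% lower (34.4% in either direction). The median log2 footprint change was 0.02 over the 7 variants and 0.00 over all genes, so the variants as a group showed no common direction. KO and WT libraries did not overlap for 4 of the 7, and they did not overlap for 64.6% of all genes. In bulk samples, a change in the share of cells that use a gene and a change in RNA per cell cannot be told apart.

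**Figure D1:**
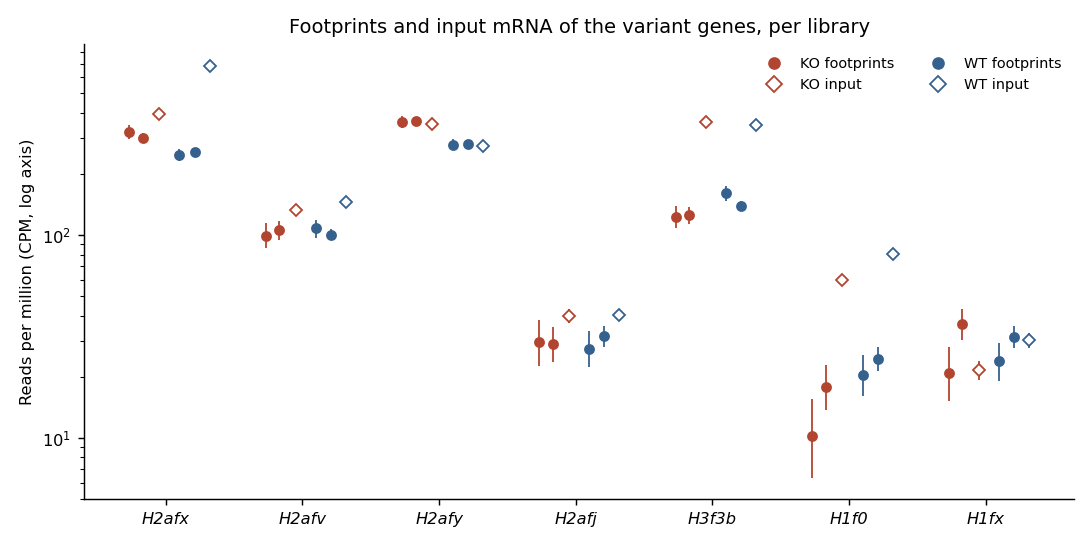
CPM (log axis) of each variant gene in every library, with KO left of WT for each gene, filled circles for footprints and open diamonds for input mRNA. Bars are 95% Poisson intervals of the counts and cover counting error only. H2afx footprints were 301 and 323 CPM in KO and 249 and 258 CPM in WT libraries, while its input was 398 CPM in KO and 682 CPM in WT.

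H2afx encodes H2A.X, the H2A variant whose C-terminal serine is phosphorylated by Atm, Atr and the DNA-dependent protein kinase around double-strand breaks. It lies on chromosome 9 (ENSMUSG00000049932.3, 44334715 to 44336077 in mm10). It had 323 and 301 CPM of footprints in KO libraries (665 and 1046 reads), against 249 and 258 CPM in WT libraries (879 and 2239 reads). Both KO libraries lay above both WT libraries. The log2 footprint change was 0.31 ± 0.05 (SE, edgeR adjusted p = 1.1e-07), a 1.24-fold rise.

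Input mRNA of H2afx was lower in KO. It was 398 CPM in the KO library and 682 CPM in the WT library, which gives a log2 ratio of -0.77 (95% counting interval -0.82 to -0.73). With 1 input library per genotype this ratio has no replicate check, and the interval covers counting error only. H2afx had the lowest input ratio of 62 histone genes, the 7 variants and 55 replication-dependent genes whose symbols start with Hist. Not counted were the measured variant genes H2afy2 and Cenpa, which are no members. The next lowest was Hist1h2ak at -0.69. Over all genes 34.7% had an input interval below 0, and 2.85% had a ratio below that of H2afx.

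Translational efficiency (TE), the ratio of footprint CPM to input CPM, therefore about doubled for H2afx. In the authors' deposited values TE was 0.811 and 0.757 in KO libraries, against 0.366 and 0.379 in WT libraries. The mean was 0.784 ± 0.038 in KO and 0.372 ± 0.009 in WT cells (SD, n = 2 footprint libraries each). Because the same input library underlies both TE values of a genotype, these SDs hold no input error. Among all genes the mean TE of H2afx stood at percentile 45.0 in KO and percentile 13.9 in WT cells.

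The TE change was tested with limma as the difference between the footprint and input contrasts on log2(CPM + 1) over all 6 libraries and 9093 genes. It was 1.07 ± 0.08 (SE) for H2afx (limma adjusted p = 6.06e-09), and H2afx was the only variant called higher in TE, 1 of 7, where 4.88% of all genes were. This fit takes each single input library to vary as little as a footprint library. With an added spread of 0.2 (log2) for each input library, the call was lost (limma adjusted p = 0.246), and 0.0440% of all genes were called. It was also lost with the authors' deposited p-value after Benjamini-Hochberg adjustment (adjusted p = 0.0594, unadjusted 0.00456 in the authors' deposited table), under which 1.57% of all genes were called. The value itself lay between 1.02 and 1.16 over all 11 alternatives with a test. All of these use the same single input library per genotype, so this range does not cover input error.

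**Figure D2:**
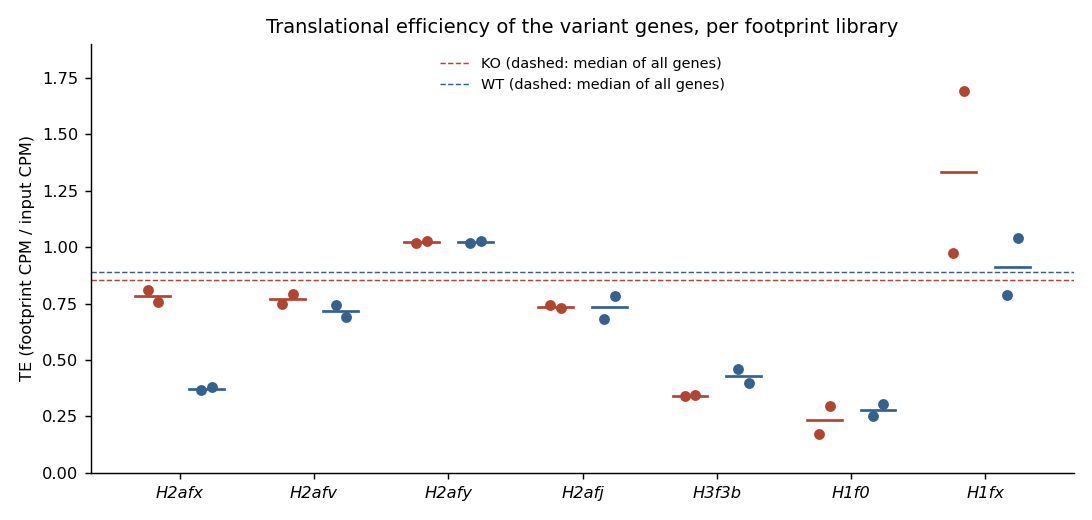
Translational efficiency (footprint CPM over input CPM) of each variant gene in every footprint library, KO left of WT, with a bar at each mean and dashed lines at the median of all genes. H2afx stood at 0.784 in KO and 0.372 in WT cells, whereas H2afy stood at 1.02 in both.

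Among 18 H2A-type genes, the 4 H2A variants and 14 replication-dependent genes without H2afy2, H2afx had the highest TE change. The next was Hist1h2ak at 0.62. Among the 62 histone genes 1 stood above H2afx, the H4 gene Hist1h4j at 1.28. The 14 replication-dependent H2A genes had a median footprint change of 0.12, a median input ratio of -0.38 and a median TE change of 0.37, with 8 of 14 called higher in TE. With the added input spread, limma called 0 of all 55 replication-dependent genes higher (3 at an unadjusted p under 0.05) against 31 without it. For H2afx the same quantities were 0.31, -0.77 and 1.07. The difference between H2afx and these genes was not tested. H2A genes share long stretches of near-identical sequence, so short footprints may be split between copies, and how such reads were assigned is not given in the sources used here.

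Seen as a share of reads, H2afx took 5.54% and 5.26% of the footprints on H2A-type genes in KO libraries (exact binomial 95% intervals of 5.14% to 5.96% and 4.95% to 5.58%). In WT libraries it took 4.45% and 4.43% (4.17% to 4.75% and 4.25% to 4.61%). These intervals do not overlap between genotypes and cover counting error only. Among the 4 H2A variants alone, H2afx took 39.7% and 37.7% of footprints in KO and 37.6% and 38.4% in WT libraries. Those shares overlapped between genotypes. Its share of H2A-type input reads was 21.4% in KO and 28.7% in WT. Of the 1668 genes with higher footprints, 3 had an input ratio as low as that of H2afx or lower: H2afx itself, Ddit4l (0.40 in footprints and -1.83 in input) and Pm20d1 (1.16 and -0.80). The cut, which is the ratio of H2afx itself, and the last 2 genes were chosen after the values were seen. By the combined footprint and input change, the gene closest to H2afx was Ccdc85b (0.38 in footprints and -0.82 in input). It was not called higher in footprints, and it was also looked up after the values were seen.

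Of the genes within 50 kb of H2afx on chromosome 9, 4 are described here, and their input ratios lay above that of H2afx. Dpagt1, an enzyme of N-glycosylation 820 bases away, fell in footprints by 0.73 (edgeR adjusted p = 0.00402) with an input ratio of -0.26. Vps11, a vesicle tethering gene, fell by 0.63 (edgeR adjusted p = 1.1e-06) with an input ratio of -0.59. Hinfp, the transcription factor of histone H4 genes, had a footprint change of -0.19 and Hyou1, a chaperone of the endoplasmic reticulum, one of 0.00, and neither passed the test (edgeR adjusted p = 0.303 and 0.974). The median over the 506 genes of chromosome 9 was -0.01 in footprints and 0.06 in input.

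**Figure D3:**
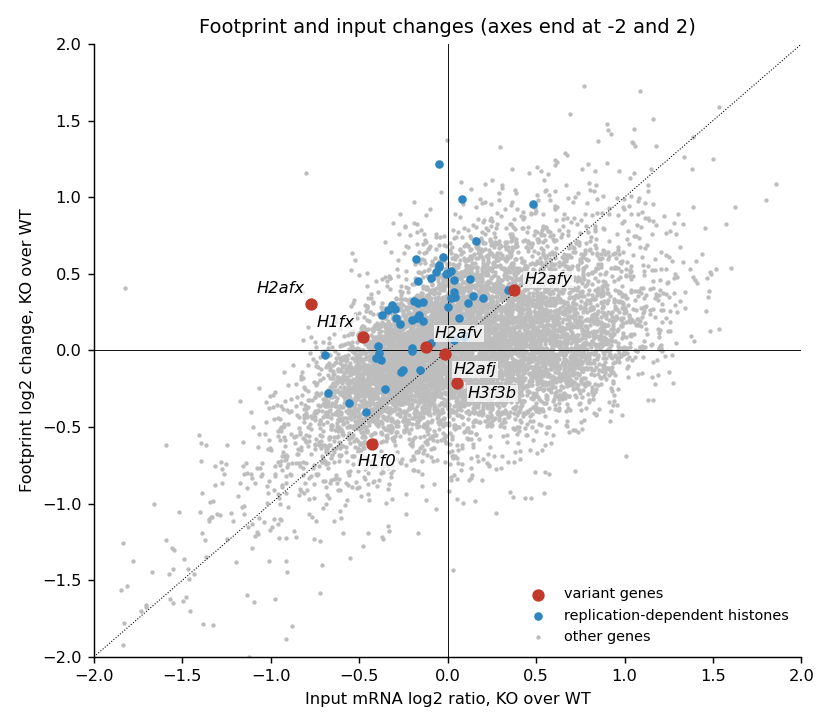
Footprint log2 change (vertical) against input mRNA log2 ratio (horizontal), KO over WT, for the variant genes (red, named), replication-dependent histone genes (blue) and other genes (grey), where the dotted line marks equal change and 12 genes lie outside the axes at -2 and 2. H2afx lies far to the upper left at -0.77 and 0.31, and H2afy lies on the line at 0.37 and 0.40.

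H2afy encodes macroH2A1, an H2A with a large extra domain that binds ADP-ribose metabolites and is found on silent chromatin. The gene is on chromosome 13 (ENSMUSG00000015937.15, 56073622 to 56135626). It had 362 and 364 CPM of footprints in KO libraries, against 279 and 281 CPM in WT libraries. The means were 363 ± 1.66 CPM in KO and 280 ± 1.52 CPM in WT (SD, n = 2 each), so the replicates lay close together and the genotypes did not overlap. The log2 footprint change was 0.40 ± 0.05 (SE, edgeR adjusted p = 8.86e-14), a 1.32-fold rise.

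For H2afy the input ratio was close to the footprint change. Input was 355 CPM in the KO library and 274 CPM in the WT library, a log2 ratio of 0.37 (counting interval 0.32 to 0.43). TE was 1.02 and 1.03 in KO libraries and 1.02 and 1.03 in WT libraries. The TE change was 0.00 ± 0.08 (limma adjusted p = 0.999). H2afy and H2afx thus had footprint changes of like size with input ratios of opposite sign. The related macroH2A gene H2afy2, which is no member, rose in footprints as well (0.49 ± 0.15, edgeR adjusted p = 0.00476), with an input ratio of 0.48 and a TE change of -0.01.

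H2afv encodes H2A.Z.2, which differs from H2A.Z.1, the product of H2afz, at a few residues. It lies on chromosome 11 (ENSMUSG00000041126.16, 6427226 to 6444511). It had 99.5 and 105 CPM of footprints in KO libraries, against 108 and 101 CPM in WT libraries. The groups overlapped, and the log2 change was 0.02 ± 0.09 (edgeR adjusted p = 0.879). Input was 133 CPM in KO and 145 CPM in WT (log2 ratio -0.12, counting interval -0.21 to -0.04). The TE change was 0.10 ± 0.14 (limma adjusted p = 0.69).

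H2afj encodes H2A.J, an H2A close in sequence to the replication-dependent forms. The gene is on chromosome 6 (ENSMUSG00000060032.6, 136808248 to 136810074). It had 29.6 and 29.1 CPM of footprints in KO libraries, against 27.5 and 31.7 CPM in WT libraries. The KO values lay between the WT values, with a log2 change of -0.02 ± 0.16 (edgeR adjusted p = 0.929). Input was 39.9 CPM in KO and 40.4 CPM in WT, and the TE change was 0.01 ± 0.26 (limma adjusted p = 0.988). These values rest on 61 and 101 footprint reads in KO libraries and 97 and 275 in WT libraries.

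H2afv and H2afj lie on chromosomes on which many genes shifted the same way. The median footprint change was -0.19 on chromosome 11, where 275 of 772 genes fell and 44 rose, and 0.31 on chromosome 6, where 213 of 417 genes rose and 22 fell. Relative to these medians H2afv stood at 0.21 and H2afj at -0.34. H2afj was near 0 while its neighbours Hist4h4 (0.46) and Wbp11 (0.29), a splicing protein gene, both rose (edgeR adjusted p = 6.8e-37 and 6.4e-07).

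H3f3b encodes H3.3, the H3 variant placed at active genes by the HIRA complex and at telomeres and repeats by ATRX and DAXX, and its protein is the same as that of H3f3a. It lies on chromosome 11 (ENSMUSG00000016559.14, 116021961 to 116026039). It had 123 and 126 CPM of footprints in KO libraries, against 161 and 139 CPM in WT libraries. Both KO libraries lay below both WT libraries, and the WT libraries differed 1.16-fold from each other. The log2 footprint change was -0.21 ± 0.07 (edgeR adjusted p = 0.0151).

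This fall of H3f3b was close to that of its chromosome. Relative to the chromosome 11 median it was -0.03, at percentile 45.2 of that chromosome's genes. The call was lost with DESeq2 (adjusted p = 0.178) and by edgeR when the first WT library was left out (adjusted p = 0.234) or either KO library was (0.0722 for the first and 0.0818 for the second). Input was 362 CPM in KO and 349 CPM in WT (log2 ratio 0.05, counting interval 0.00 to 0.10), above the chromosome 11 input median of -0.24.

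TE of H3f3b was 0.339 and 0.346 in KO libraries, against 0.461 and 0.397 in WT libraries. The KO values lay below the WT values. The TE change of -0.32 ± 0.12 missed the threshold (limma adjusted p = 0.0688), and 4 of 11 alternatives put it past the threshold. In all, limma called 0 of 7 variants lower in TE (1 at an unadjusted p under 0.05, H3f3b), and the authors' p-values gave 0 both adjusted and unadjusted, where limma called 12.8% of all genes lower.

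H1f0 encodes H1.0, a linker histone that binds DNA between nucleosomes and accumulates as cells stop dividing and differentiate. The gene is on chromosome 15 (ENSMUSG00000096210.1, 79028212 to 79030504). It had 10.2 and 17.9 CPM of footprints in KO libraries (21 and 62 reads), against 20.4 and 24.6 CPM in WT libraries (72 and 213 reads). Both KO libraries lay below both WT libraries, but the KO libraries differed 1.75-fold from each other. The log2 footprint change was -0.61 ± 0.20 (edgeR adjusted p = 0.00868), the largest change in size among the 7 variants, against a chromosome 15 median of 0.00.

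The H1f0 call rested on few reads. Without the first KO library the change was -0.35 (edgeR adjusted p = 0.266), without the second KO library -1.16 (0.00259), and without the second WT library -0.43 (0.239). With DESeq2 it missed the threshold too (adjusted p = 0.194). Input of H1f0 was also lower in KO, at 59.9 against 80.8 CPM in WT (log2 ratio -0.43, counting interval -0.54 to -0.31), and the TE change was -0.26 ± 0.34 (limma adjusted p = 0.676). Its neighbours Gcat (0.29) and Triobp (0.31) rose in footprints (edgeR adjusted p = 8.22e-05 and 0.000176). Ankrd54 (0.23) and Eif3l (-0.0043), also within 50 kb, passed the test in neither direction (edgeR adjusted p = 0.272 and 0.952). Gcat, an enzyme of threonine breakdown, lies 370 bases from H1f0.

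H1fx encodes H1.10, a linker histone distant in sequence from the other family members. It lies on chromosome 6 (ENSMUSG00000044927.6, 87980421 to 87981482). It had 20.9 and 36.3 CPM of footprints in KO libraries (43 and 126 reads), against 23.8 and 31.5 CPM in WT libraries (84 and 273 reads). The groups overlapped, and the first library of each genotype was the lower one. The log2 change was 0.09 ± 0.16 (edgeR adjusted p = 0.7), and it was -0.45 without the second KO library and 0.36 without the first. Relative to the chromosome 6 footprint median of 0.31, H1fx stood at -0.22. Its neighbours Hmces (0.20) and Rab7 (0.32) rose in footprints (edgeR adjusted p = 0.0136 and 3.2e-05).

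Input of H1fx was 21.5 CPM in KO and 30.3 CPM in WT (log2 ratio -0.48, counting interval -0.66 to -0.29). This was below the chromosome 6 input median of 0.35. The TE change of 0.48 ± 0.36 did not pass (limma adjusted p = 0.401), though it did without the first KO library (0.87, limma adjusted p = 0.00872).

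The 2 linker variants took 0.311% and 0.551% of linker histone footprints in KO libraries (exact binomial 95% intervals of 0.24% to 0.397% and 0.475% to 0.635%), against 0.549% and 0.682% in WT libraries (0.466% to 0.642% and 0.623% to 0.745%). The second KO library lay just above the first WT library, so the groups overlapped. The other linker reads fell on 6 replication-dependent H1 genes. Among these Hist1h1a, with the largest footprint change of the called ones, had 4359 ± 5 CPM in KO and 3492 ± 50 CPM in WT (SD, n = 2 each) and rose by 0.34 (edgeR adjusted p = 1.1e-36). Of these 6 genes 4 rose and 1 fell.

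**Figure D4:**
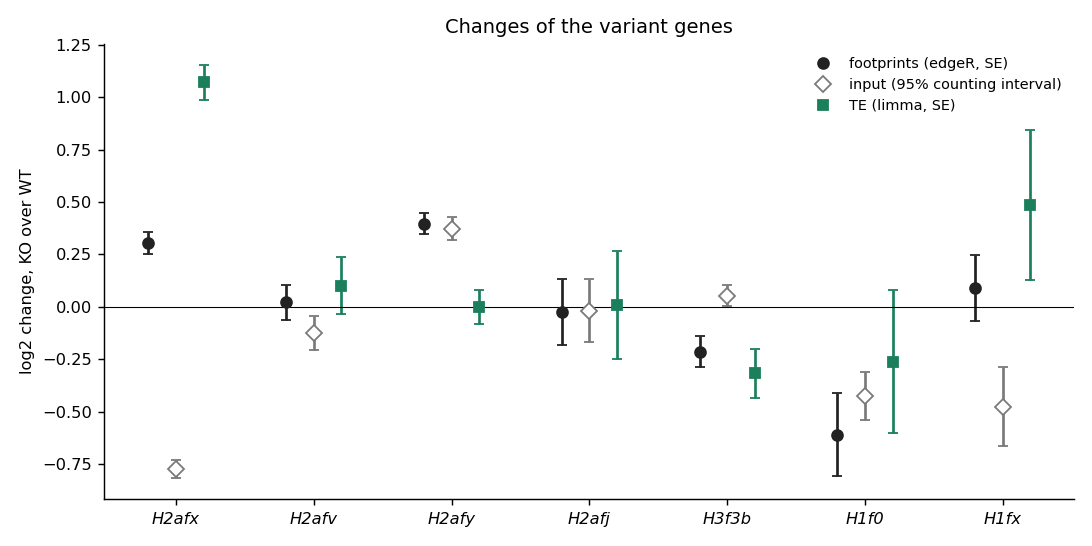
Log2 changes, KO over WT, of each variant gene in footprints (circles, edgeR, bars are SE), input mRNA (open diamonds, bars are 95% counting intervals, 1 library per genotype) and TE (squares, limma, bars are SE). H2afx has the widest gap between footprint and input values, at 0.31 and -0.77.

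Input ratios had counting intervals above 0 for 2 of 7 variants (H2afy and, barely, H3f3b) and below 0 for 4 (H2afx, H2afv, H1f0 and H1fx). Over all genes 41.5% and 34.7% had such intervals. The median input ratio was -0.12 over the variants and 0.05 over all genes.

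H2afx ranked higher among the variants by TE in KO than in WT cells. In KO cells the mean TE ran from H1fx (1.33) through H2afy (1.02), H2afx (0.784), H2afv (0.769), H2afj (0.736) and H3f3b (0.343) to H1f0 (0.234). In WT cells it ran from H2afy (1.02) through H1fx (0.914), H2afj (0.734), H2afv (0.717), H3f3b (0.429) and H2afx (0.372) to H1f0 (0.278). Neighbours whose libraries overlapped were H1fx and H2afy and H2afx and H2afv in KO cells, and H2afy and H1fx and H2afj and H2afv in WT cells. The median TE of all genes was 0.854 in KO and 0.89 in WT cells. TE of different genes also depends on how much of each mRNA is coding, which was not corrected.

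Across the 7 variants together, footprints summed to a mean of 973 CPM in KO and 867 CPM in WT libraries. The 55 replication-dependent histone genes summed to a mean of 26592 CPM in KO and 23405 CPM in WT libraries. The variants held 3.50% and 3.56% of histone footprints, counted over these genes, in KO libraries and 3.61% and 3.54% in WT libraries. These shares overlapped between genotypes. Their share of histone input was 6.38% in KO and 7.0% in WT. Within the variants, H2afx held 33.4% and 30.8% of footprints in KO libraries and 28.7% and 29.8% in WT libraries. The exact binomial 95% intervals of the second KO library (29.2% to 32.3%) and the second WT library (28.8% to 30.8%) overlapped. H2afx held 29.1% of variant input in KO and 42.6% in WT.

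By the combined footprint and input change, the genes closest to H2afy, which had the highest footprint change of the variants, were Tcf25, Lpcat3 and Tbca, at distances of 0.01 to 0.02 (Euclidean, log2 units, over these 2 changes). Those closest to H1f0, which had the lowest, were Ddc, Crtap and Otud1, at 0.01.

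The lists of genes that deposit, modify or process histone variants are read against all genes, of which 34.4% were called in footprints in either direction. Of 23 measured genes of the SRCAP, TIP60-p400 and INO80 complexes and Anp32e, which load, exchange or remove H2A.Z, 5 rose and 3 fell in footprints, a share near that of all genes, with a median of -0.09. The largest changes past the test were those of Ing3 at 0.60 ± 0.11, on chromosome 6, the INO80 actin-related gene Actr5 at 0.49 ± 0.21 and the acetyltransferase gene Kat5 at 0.38 ± 0.09 (edgeR adjusted p = 1.9e-07, 0.0498 and 8.8e-05). Of 12 genes of H3.3 deposition and reading, 4 rose and 3 fell, with a median of 0.07. Hira, which lies on chromosome 16, fell by 0.78 to 19.6 ± 2.37 CPM in KO, against 34.3 ± 3.17 CPM in WT, and Atrx fell by 0.63 to 169 ± 1.17 CPM, against 268 ± 9.46 CPM (edgeR adjusted p = 3.03e-05 and 1.43e-23). Ubn2, a HIRA partner on chromosome 6, rose by 0.53 (edgeR adjusted p = 0.00726). The chromosome medians of footprint change were -0.25 for Hira on chromosome 16, -0.04 for Atrx on the X chromosome and 0.31 for Ubn2 on chromosome 6, and the part of these shifts in the genes' values was not tested.

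**Figure D5:**
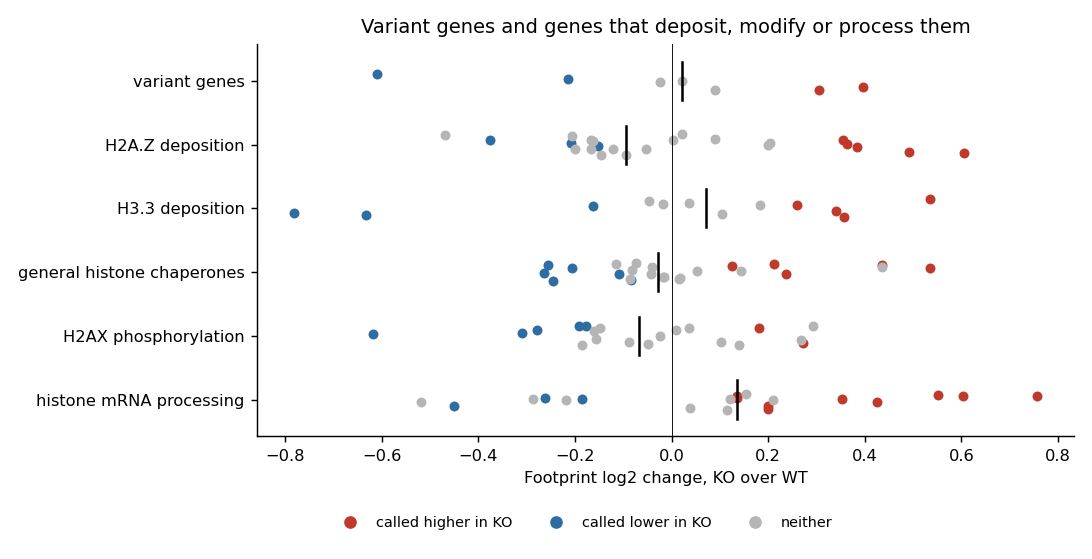
Footprint log2 change, KO over WT, of each measured gene of the variant set and of 5 lists of genes that deposit, modify or process histones, with black bars at list medians and colours for genes called higher, lower or neither by edgeR. Every list held genes called in each direction, and medians lay between -0.09 and 0.14.

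Among 20 measured genes of H2A.X phosphorylation and its readers, 2 rose and 5 fell in footprints, again a share near that of all genes, with a median of -0.07. The phosphatase gene Ppm1d, on chromosome 11, fell by 0.62, the checkpoint kinase gene Chek2 by 0.31 and the reader gene Trp53bp1 by 0.28 (edgeR adjusted p = 0.000232, 0.000408 and 4.85e-06). In TE this list had 9 of 20 genes lower and 0 higher by limma (13 and 0 at an unadjusted p under 0.05), where 12.8% of all genes were lower, and its median TE change was -0.60 with a median input ratio of 0.64. None of the 9 was called with the added input spread (6 lower at an unadjusted p under 0.05) or by the authors' p-values after adjustment (13 lower and 2 higher unadjusted). The TE change of H2afx (1.07) and the median of this list (-0.60) thus had opposite signs, both measured against the same pair of input libraries.

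Of 20 genes of histone mRNA 3′ end processing and transcription, 9 rose and 3 fell, with a median of 0.14. Lsm1 (0.76), which acts in mRNA decapping, the RNA helicase gene Upf1 (0.60) and the exonuclease gene Eri1 (0.55), all on chromosome 8, rose most (edgeR adjusted p = 1.92e-06, 4.09e-48 and 1.41e-07). The median footprint change of chromosome 8 was 0.39, and 338 of its 522 genes rose while 12 fell. Of 24 general histone chaperones and importins, 5 rose and 6 fell, with a median of -0.03. Nap1l1 rose by 0.53 and Rbbp7 by 0.43 (edgeR adjusted p = 3.51e-18 and 6.6e-18). The importin gene Kpnb1, on chromosome 11, fell by 0.26 (edgeR adjusted p = 4.69e-17). The median footprint change of chromosome 11 was -0.19, and its part in the value of Kpnb1 was not tested. Of 9 further variants listed, 2 were measured, H2afy2 and Cenpa, the centromeric H3 variant gene, which rose by 0.45 ± 0.13 (edgeR adjusted p = 0.00229). With DESeq2, which called 15.4% of all genes in either direction, the counts of higher and lower footprints were 3 and 0 for H2A.Z, 1 and 2 for H3.3, 1 and 3 for H2A.X phosphorylation, 5 and 1 for mRNA processing and 3 and 2 for chaperones. It called neither H2afy2 nor Cenpa (2 higher at an unadjusted p under 0.05).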

How the data were processed

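Footprints were deposited by the authors as raw counts per gene and as CPM of the library total, and input mRNA only as CPM, per the file headers. The authors gave TE per library, a deposited ratio of these CPM values, and its mean per genotype, with an unadjusted p-value and a log2 fold. Per the submitters' processing notes, Bowtie (version not stated there) and the mm10 build were used. Which counter, annotation and gene filter were used is not given in the sources used here. Library totals were recovered as count over CPM, and input totals hold if the lowest input value stands for 1 read (100% of input values were whole multiples of it, within 0.01). Input was therefore not tested as counts. A further 2 per-sample columns matched no sample and were not used.

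Footprints were tested with edgeR 4.0.16 (TMM, 2 KO against 2 WT libraries) and TE with limma 3.58.1 (trend, log2(CPM + 1), mean CPM of at least 1, which removed 0 genes), both over 9093 genes with Benjamini-Hochberg adjustment at 0.05 and 2 residual degrees of freedom. The added 1 CPM shrinks changes of low genes. Fits were tested on simulated data with 200 genes changed 2-fold, and 91.5% were recovered for footprints and 66.5% for TE over 9093 genes. Only footprints were changed, and input was simulated with the same spread as footprints. The TE recovery therefore does not cover a larger input spread. DESeq2 1.42.0, other scalings, filters, added constants, left-out libraries and a replicate block were tried. Replicates differed by more than sampling (chi-square over its degrees of freedom was 1.24 in KO and 1.44 in WT). Deviations of same-numbered footprint libraries correlated at -0.03, so the numbers were not taken as pairs. Positions came from RefSeq (GRCm38.p6), matched by symbol or synonym for 9057 genes. Named genes were all members, the 3 largest called footprint changes of each list and the 3 genes nearest to the highest and lowest member. Members, lists and tests were chosen with earlier results of these data known. Shares within the H3.3 and H2A.Z gene pairs, which were planned, were not computed because H2afz and H3f3a were not analysed here.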

Additional observations from a re-analysis of the deposited data

How the results depend on the processing

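H2afx and H2afy kept their direction and their footprint call under all 10 alternatives (0.27 to 0.36 and 0.38 to 0.41, adjusted p of 9.67e-08 to 0.00161 and 6.49e-14 to 3.77e-06). The count of variants with lower footprints, 2, was 1 with at least 50 counts in every library (which leaves H1f0 and H1fx out), 0 with DESeq2 (1 at an unadjusted p under 0.05) and 0 to 1 without 1 library. Over all genes DESeq2 called 771 higher and 629 lower against 1668 and 1458 by edgeR, and leaving out 1 library gave 1015 to 1480 higher and 920 to 1253 lower. In TE the count of variants called higher, 1, was 0 with an added input spread of 0.2 and 0 with the authors' p-values (1 at an unadjusted p under 0.05 in each), and 1 to 2 without 1 library. The count called lower, 0, was 1 with the replicate block (H3f3b at -0.32, adjusted p = 0.0491) and 0 to 1 without 1 library. Over all genes 444 were higher and 1165 lower in TE. Higher calls were 756 with median centring, 4 with the added spread, 36 with the authors' p-values and 279 to 811 without 1 library, and lower calls were 883, 0 (696 at an unadjusted p under 0.05), 107 and 823 to 1589. The replicate block gave 1580 and 1372 footprint calls and 441 and 1200 TE calls. Changes near 0 turned sign without 1 library: footprints of H2afv (-0.040 to 0.060), H2afj (-0.088 to 0.12) and H1fx (-0.45 to 0.36), and TE of H1f0 (-0.64 to 0.11), H2afj (-0.090 to 0.11) and H2afy (-0.0057 to 0.0053). TE of H2afy was 0.092 with median centring. The causes were not tested. The count model planned for TE was not run, as the input was deposited as CPM, and depth limits H1f0 and H1fx most.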
